A study of Mus musculus with 9 samples.

Results

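The genes described here are those whose transcript level in mouse plantaris muscle, a fast muscle of the hindlimb, differed from control in hypoxia and stayed at 1 level from 2 h to 6 h. The 6 hypoxia libraries were pooled and compared with the 3 control libraries, so all 9 libraries of the series entered. Of 13722 genes in the table, the 13309 with a mean of at least 0.5 RPKM (reads scaled to transcript length and to library size) were tested, and 413 fell under that level. A gene was called when its pooled change passed an adjusted p of 0.05 in limma. It was said to hold its level when, besides, the 6 h mean differed from the 2 h mean by at most 0.5 on the log2 scale and the 95% interval of that difference lay within -1 to 1. By this rule 256 genes were called and 200 of them held their level.

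All animals were male C57BL/6J mice (C57BL/6 in the strain label) aged 3 months, with no genetic change named. Control mice had 0 h of hypoxia, and the other groups breathed 8% oxygen for 2 h or 6 h until they were killed, still in that gas, so each group holds other animals. Each group has 3 libraries, and the labels do not state outright that each came from a separate mouse, so that p-values measure the spread between libraries. A single control group at 0 h stands for both times, and exposure cannot be told apart from clock time, handling or feeding over the same hours. In whole muscle, a change in the number of cells of a type and a change in RNA per cell also cannot be told apart.

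As background, cells sense low oxygen mainly through prolyl hydroxylases, which in normal air mark the alpha subunits of the hypoxia-inducible factors for destruction. When oxygen falls these subunits persist, pair with ARNT and switch on genes of glycolysis, angiogenesis and red cell formation. The whole animal adds a hormonal answer, in which adrenal glucocorticoids and catecholamines rise and feeding declines. In muscle, hormone and nutrient signals meet at the FoxO factors, which Akt keeps out of the nucleus while insulin acts, and which otherwise raise genes of protein breakdown and fuel sparing.

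Library depth lay between 72706707 and 137097900 reads recovered from the table. The 15 fast fibre genes summed to between 112769 and 130878 RPKM and the 13 slow fibre genes to between 2518 and 9619 RPKM, which fits the label of a fast muscle. Control replicates 2 and 3 and 6 h replicate 2 carried high levels of matrix genes. The matrix gene Postn reached 21.9 to 43.2 RPKM there, against 1.32 to 3.45 RPKM in the 6 remaining libraries, and 24 of 25 matrix genes and 17 of 19 macrophage genes showed the same separation. No tested member of these lists was at 0 in any library. Of the 3 controls 2 are among them, and matrix genes had lower means in pooled hypoxia (median log2 change -0.94 over 25 genes, 0 called by limma or edgeR, 3 by DESeq2, 10 at an unadjusted p under 0.05 in limma). Values without these 3 libraries, a fit that leaves 1 control, are given beside some results only. There the log2 change was smaller in size in Azin1 (-0.98, from -1.46), Nr4a3 (-0.81, from -1.40), Hspa1b (-1.30, from -2.06) and Myod1 (-0.91, from -1.46). It was larger in size in Dusp10 (-1.87, from -1.42), Tfrc (-2.10, from -1.50) and Gadd45b (-1.36, from -1.01). All 200 held genes kept their sign. This was fixed beforehand, since in each of them every hypoxia library lay on 1 side of every control, and it lends them no further weight. The median ratio to the pooled change was 0.975.

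The pooled comparison set the mean of the 2 hypoxia times against control, and a call does not require a change at each time. Of 13309 genes, 159 rose and 97 fell by limma, which is 1.19% and 0.729% of those tested and 1.92% together. These shares are the background for every list count below. The lists were chosen with earlier results of these data known, so a list count above its background is no independent support. Rises that held numbered 129 and falls that held 71. Another 48 called genes had a 6 h minus 2 h interval that excludes 0 and are described last, and 8 could be placed in neither class. The 6 hypoxia libraries lay wholly above or wholly below the 3 controls in 241 of the 256 called genes, against 10.8% of all genes tested. The call used these same libraries, so such separation largely follows from it and lends it no further weight. The same holds for the separation given for single genes below. The split between rises and falls depended on the scaling of the libraries, with 101 rises and 126 falls after upper-quartile scaling and 113 rises and 138 falls after median centring. After upper-quartile scaling 75 of the 129 held rises and 68 of the 71 held falls were still called, and Selenbp1, Prima1, Fam107a, Hsd11b1 and Srrm1 were among the rises that were not.

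Being level between the times was common and not particular to the called genes. The limits of a held level were met by 81.2% of all genes tested and by 78.1% of those called. The interval of the 6 h minus 2 h difference excluded 0 in 16.4% of all genes tested and in 32 of the 200 held genes. The median size of that difference was 0.17 in held genes and 0.18 in all genes tested, on the log2 scale. Of the 129 held rises 62 stood farther from control at 6 h than at 2 h, and of the 71 held falls 33 did.

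Most held changes were modest. In 25 of the 200 the pooled change was at least 2-fold (8 rises and 17 falls) and in 112 at least 1.5-fold. The median control level of held genes was 6.58 RPKM, against 4.31 RPKM for all genes tested. By level, 8 of 1661 genes under 1 RPKM in control held a change, 116 of 7665 between 1 and 10 RPKM, 72 of 3419 between 10 and 100 RPKM, and 4 of 564 above. All 8 of the least abundant were rises, and such genes can pass the filter on low values through their hypoxia libraries.

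Many held genes were not called at either time alone. At 2 h alone limma called 0.774% of the genes tested and at 6 h alone 1.60%. Of the 200 held genes 29 were called at both times, 37 at 2 h only, 59 at 6 h only and 75 at neither. The controls are the same in both comparisons, so a gene called at both is not seen independently in each. In the authors' deposited table the fold changes at 2 h and at 6 h shared the sign of the pooled change in 200 of 200 held genes. Those folds come from the same libraries, and the rule for a held level all but fixes their sign. It allows a difference of at most 0.5 between the times, and the smallest pooled log2 changes were 0.33 for held rises and 0.39 in size for held falls. The authors' adjusted p-values were under 0.05 in 0 of the 200 at 2 h and in 2 at 6 h.

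**Figure D1:**
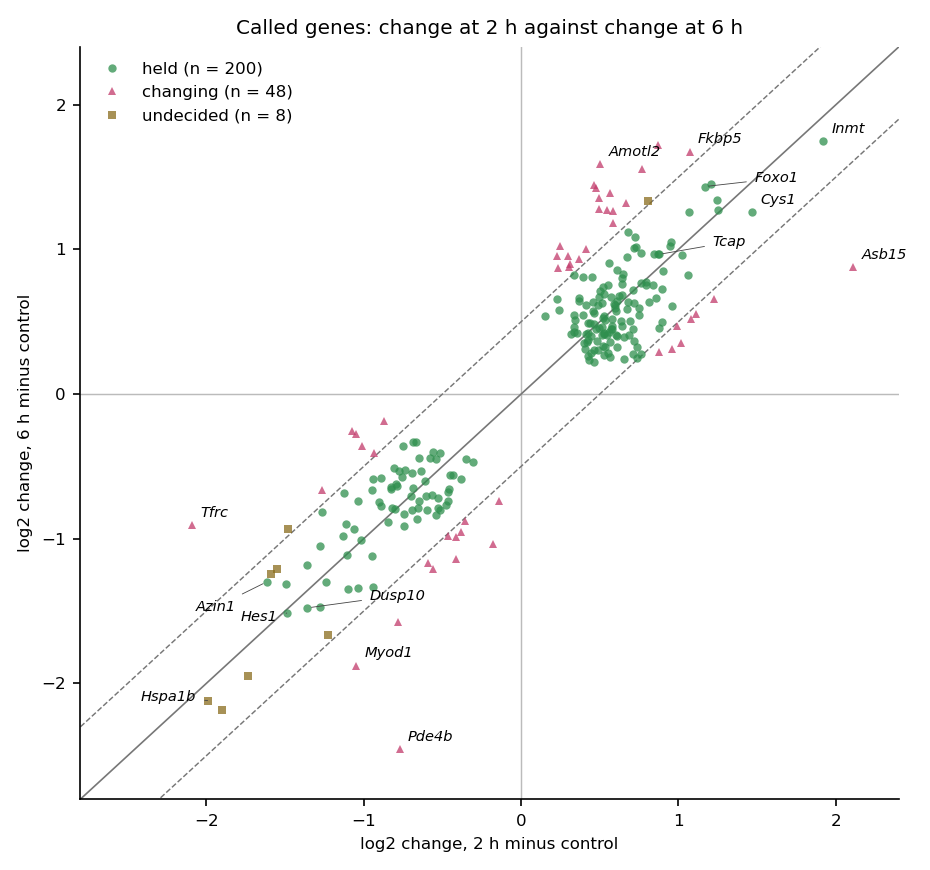
Change of each called gene from control at 2 h (horizontal axis) and at 6 h (vertical axis), both as log2(RPKM + 0.5) differences. Each point is 1 gene, the solid line marks equal change and the dashed lines a difference of 0.5, and the 200 held genes (circles) lie between the dashed lines, whereas Tfrc, Pde4b and Asb15 lie far from them. Both axes use the same 3 controls and are not independent.

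Among held genes the FoxO and insulin signalling genes were led by Foxo1, a forkhead factor that turns on atrophy and fuel-sparing genes and that insulin restrains through Akt. Foxo1 (chromosome 3, 52072259 to 52154031 in mm9, plus strand) stood at 5.17, 4.48 and 4.85 RPKM in control replicates 1 to 3. It stood at 9.39, 13.9 and 11.5 RPKM at 2 h and at 13.2, 13.8 and 14.7 RPKM at 6 h. Every hypoxia library was thus higher than every control, and the 6 h libraries overlapped those of 2 h. The rise was 2.46-fold (log2 1.30 ± 0.12 SE, adjusted p = 0.00559 by limma), and 6 h exceeded 2 h by 0.27 (95% interval -0.04 to 0.57). Foxo1 overlaps an annotated gene on the opposite strand, Gm20402, and reads of the pair may be shared.

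Of 45 tested genes of insulin and PI3K-Akt signalling 3 rose, 0 fell and 1 of the 3 held its level, with a median log2 change of 0.04 beside 0.02 over all genes and -0.09 when the 3 libraries of high matrix genes were left out. The others were Pik3r1, the regulatory subunit of PI3 kinase, and Pik3ip1, a membrane inhibitor of that kinase, and both moved between the times. Of 32 FoxO and atrophy genes 4 rose and 0 fell (median log2 0.18), and Foxo1 and Klf15 held. Klf15, a Krüppel-like factor that glucocorticoids induce and that promotes amino acid breakdown, stood at 12.4, 10.1 and 12.2 RPKM in control. It reached 21.2, 30.8 and 22.7 RPKM at 2 h and 18.7, 18.7 and 25.2 RPKM at 6 h. All hypoxia libraries lay above all controls, with the highest at 2 h (log2 0.94 ± 0.15 SE, adjusted p = 0.0308 by limma).

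The ubiquitin ligases that mark muscle wasting did not pass the test. Fbxo32, atrogin-1, stood at 64.8 to 91.9 RPKM in control, at 109 to 221 RPKM at 2 h and at 60.7 to 91.4 RPKM at 6 h, so that the 2 h libraries lay above the controls and the 6 h libraries did not (pooled log2 0.49, adjusted p = 0.264 by limma). Trim63, MuRF1, ranged from 168 to 419 RPKM in control and from 243 to 641 RPKM in hypoxia, and the groups overlapped (log2 0.19, adjusted p = 0.788). Foxo3, a sister of Foxo1, ranged from 1.36 to 1.90 RPKM in control and from 1.21 to 3.34 RPKM in hypoxia, again with overlap (log2 0.49, adjusted p = 0.241). Pdk4, the pyruvate dehydrogenase kinase that spares glucose and that FoxO and fatty acids induce, had controls of 440.3 to 591 RPKM and hypoxia libraries of 516 to 864 RPKM (log2 0.45, adjusted p = 0.111).

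Of 32 glucocorticoid-responsive genes 9 rose and 0 fell, and 5 of the 9 held their level. The list did not move as 1, with a higher mean in hypoxia in 20 genes and a lower mean in 12. Among the lower, none of them called, were Mt2 (log2 -0.87), Errfi1 (-0.71) and Dusp1 (-0.26). Of all genes tested 1.19% rose, and the list's median log2 change was 0.34, beside 0.02 for all. When the libraries of high matrix genes were modelled separately, 2 of the list were called. After upper-quartile scaling Fam107a (adjusted p = 0.0574), Hsd11b1 (0.0557), Pik3r1 (0.0626) and Arrdc2 (0.0508) were no longer called by limma. Among the held were Foxo1 and Klf15, above, Fam107a, Sult1a1 and Hsd11b1. Fam107a, an actin-associated stress protein, stood at 3.07, 2.43 and 3.03 RPKM in control and at 3.84 to 8.83, median 5.43 RPKM in the 6 hypoxia libraries. Sult1a1, a sulfotransferase of phenols, stood at 12.2, 9.65 and 13.8 RPKM in control and at 16.7 to 26.4, median 21.5 RPKM in hypoxia. Hsd11b1, the enzyme that regenerates active glucocorticoid inside cells, stood at 5.42, 4.24 and 5.50 RPKM in control and at 6.27 to 8.91, median 7.88 RPKM in hypoxia.

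For these 3 genes the lowest hypoxia library exceeded the highest control. Their pooled log2 changes were 0.90, 0.81 and 0.58 (adjusted p = 0.0431, 0.035 and 0.0474 by limma). The other 4 members that rose were Fkbp5, Amotl2, Pik3r1 and Arrdc2, which moved between the times. Some list members are shared with the FoxO list, namely Foxo1, Klf15, Foxo3, Pdk4 and Cdkn1a. Per1, a clock gene that glucocorticoids also induce, stood at 14.5, 11.0 and 9.43 RPKM in control, 13.2 to 14.9 RPKM at 2 h and 21.9 to 26.4 RPKM at 6 h, and missed the threshold (log2 0.63, adjusted p = 0.0505 by limma).

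In the clock itself a repressor rose and an activator fell. Of 22 clock genes Cry2 rose, Clock fell, and both held their level, with 16 at an unadjusted p under 0.05 and a list median of 0.34. That median was 0.16 when the libraries of high matrix genes were modelled separately and 0.08 without them. Cry2, a cryptochrome that represses CLOCK and BMAL1, stood at 5.20, 5.09 and 5.51 RPKM in control, at 8.24, 8.96 and 8.32 RPKM at 2 h and at 9.80, 9.66 and 9.27 RPKM at 6 h. Control libraries lay within a narrow band, all hypoxia libraries above it and all 6 h libraries above all 2 h libraries (log2 0.72 ± 0.07 SE, adjusted p = 0.00612). Still, the 95% interval of the 6 h minus 2 h difference reached from -0.02 to 0.34. Clock, the activating partner of BMAL1, stood at 3.61, 2.58 and 3.58 RPKM in control and at 1.36 to 2.16, median 1.92 RPKM in hypoxia, below every control (log2 -0.67, adjusted p = 0.0459). Cry2 overlaps D930015M05Rik on the opposite strand.

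**Figure D2:**
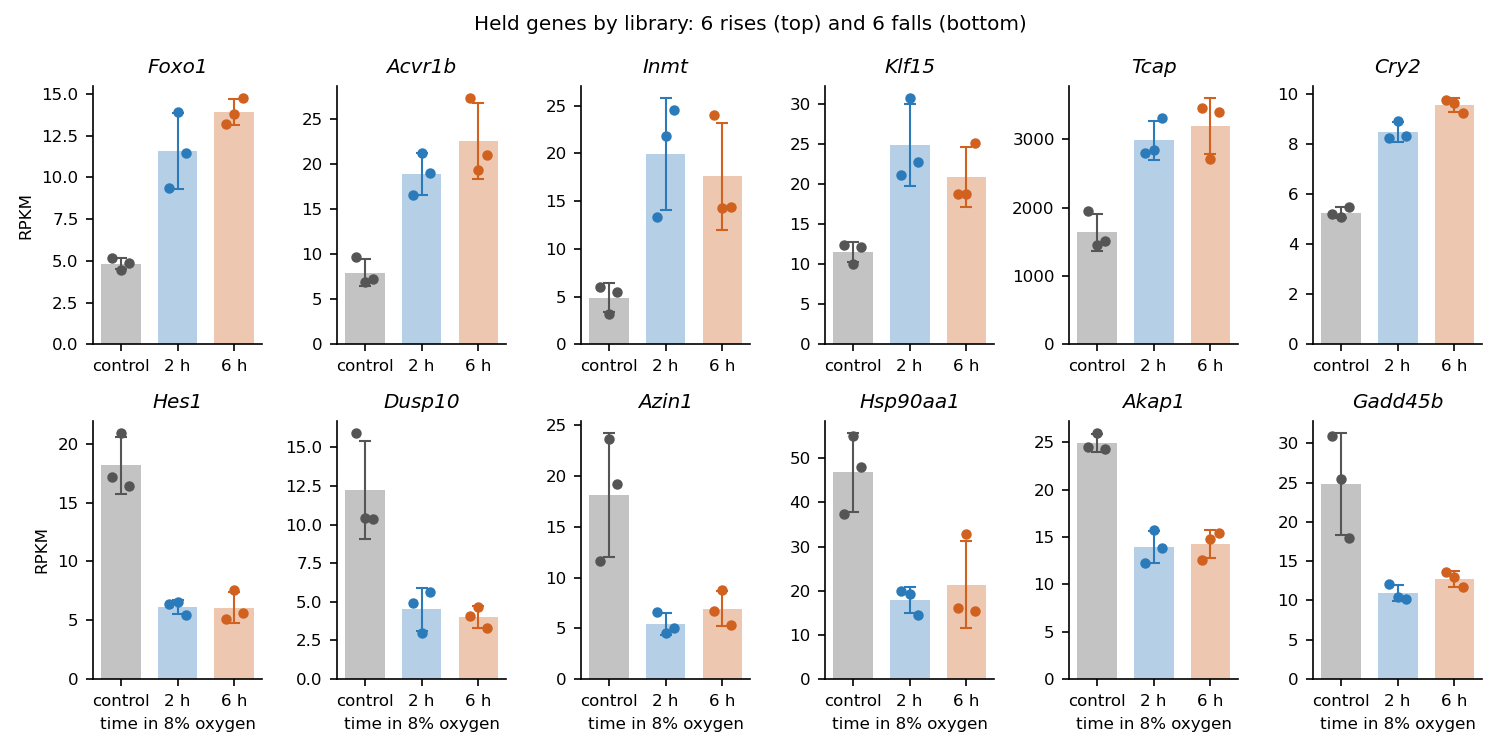
Level in RPKM (vertical axes, from 0) of 6 genes that rose and held (top) and 6 that fell and held (bottom), in control, after 2 h and after 6 h of 8% oxygen. Points are libraries, bars group means and whiskers 1 SD over 3 libraries, and in each panel every hypoxia library lies on 1 side of every control.

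Of the activin and BMP family 3 genes were called, among them the receptors Acvr1b and Acvr1. Acvr1b, the type I receptor ALK4 through which activin and myostatin restrain muscle growth, stood at 9.63, 6.87 and 7.24 RPKM in control. It reached 16.5, 21.2 and 19.0 RPKM at 2 h and 27.3, 19.3 and 21.0 RPKM at 6 h. The lowest hypoxia library was well above the highest control, and the rise was 2.52-fold (log2 1.33 ± 0.15 SE, adjusted p = 0.0116 by limma, 6 h minus 2 h 0.24, interval -0.14 to 0.62). Bmp4, a bone morphogenetic protein, also rose and held, from 1.83, 1.94 and 1.52 RPKM in control to 2.55 to 3.63, median 3.03 RPKM in hypoxia (log2 0.62, adjusted p = 0.0432). Of 34 genes of this family 2 rose and 1 fell, Acvr1, a BMP type I receptor that fell mainly by 6 h. The median of the list was -0.25 and 17 of 34 were at an unadjusted p under 0.05. It was -0.11 when the libraries of high matrix genes were modelled separately, and 7 of the 34 were higher in those 3 libraries than in all others.

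The largest held rise was that of Inmt, an enzyme that methylates small amines such as tryptamine. Inmt stood at 5.97, 3.17 and 5.52 RPKM in control, at 13.3, 21.9 and 24.5 RPKM at 2 h and at 24.1, 14.3 and 14.4 RPKM at 6 h. All hypoxia libraries were far above the highest control, yet they spread widely at either time (log2 1.83 ± 0.26 SE, 3.56-fold, adjusted p = 0.0272 by limma). It was the 1 gene called of 16 small-molecule methyltransferases. Further metabolic enzymes rose and held as well. Fmo2, a flavin monooxygenase, went from 2.22, 2.43 and 2.74 RPKM in control to 4.65 to 8.03, median 7.62 RPKM in hypoxia (log2 1.26, adjusted p = 0.0337), and Selenbp1, a selenium-binding methanethiol oxidase, from 12.6, 9.46 and 9.96 RPKM to 14.6 to 29.4, median 21.6 RPKM (log2 1.00, adjusted p = 0.0471). The lowest hypoxia library of Selenbp1 was 6 h replicate 2, which still exceeded each control.

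Antioxidant genes split by member. Of 38 glutathione and antioxidant genes 2 rose and 1 fell, and 2 of these held. Gpx3, the secreted glutathione peroxidase, stood at 136, 123 and 114 RPKM in control and at 187 to 276, median 203 RPKM in hypoxia (log2 0.76 ± 0.12 SE, adjusted p = 0.0308 by limma). Txnrd1, thioredoxin reductase, went the other way, from 19.3, 30.9 and 22.4 RPKM to 11.8 to 16.6, median 13.6 RPKM (log2 -0.79, adjusted p = 0.0445). In both genes hypoxia and control libraries did not overlap. Gstm1, a glutathione transferase, rose without holding its level (78.3 to 86.3 RPKM in control, 167 to 193 RPKM at 2 h, 92.0 to 154 RPKM at 6 h).

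The most abundant of the 15 leading rises was Tcap, telethonin, which caps titin at the Z-disc. Tcap lay at 1452 to 1954 RPKM in control, at 2804 to 3312 RPKM at 2 h and at 2718 to 3456 RPKM at 6 h. Every hypoxia library exceeded every control by a wide margin (log2 0.92 ± 0.12 SE, 1.89-fold, adjusted p = 0.0224 by limma). Cys1, cystin, a cilium-associated protein, rose from 0.758, 0.448 and 0.695 RPKM to 1.87 to 3.16, median 2.33 RPKM (log2 1.36). Its controls lie near the pseudocount of 0.5, so its fold change is understated. Slow fibre genes varied without a call: they summed to 3574 to 4381 RPKM in control and 2518 to 9619 RPKM in hypoxia, with 9 of 13 higher on average, 0 called by limma or edgeR, 1 by DESeq2 and 1 at an unadjusted p under 0.05.

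The remaining leading rises came from several roles. Prima1 anchors acetylcholinesterase in the membrane at nerve endings and rose from 1.89 to 2.68 RPKM to 4.22 to 10.2 RPKM (log2 1.29, adjusted p = 0.0471 by limma). Gata2, a zinc finger factor of blood and vessel cells, rose from 0.573 to 0.828 RPKM to 1.67 to 3.10 RPKM (log2 1.16, adjusted p = 0.0308). Nerve and Schwann cell genes, beside Prima1, were higher on average in 11 of 11, with 0 called by limma, edgeR or DESeq2 and 0 at an unadjusted p under 0.05, and summed to 66.4 to 89.8 RPKM in control and 62.4 to 684 RPKM in hypoxia. The sum of 684 RPKM belongs to 6 h replicate 1, whereas Prima1 was highest in 2 h replicate 2. Of 15 endothelial genes, beside Gata2, only Robo4, a vascular guidance receptor, was called, and it rose and held (2.05 to 2.21 RPKM in control, 2.77 to 4.43 RPKM in hypoxia, log2 0.63, adjusted p = 0.037).

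BC031353, a gene without an assigned role, had among the tightest groups, at 3.47, 3.23 and 3.50 RPKM in control and 6.28 to 7.38, median 7.02 RPKM in hypoxia (log2 0.92 ± 0.08 SE, adjusted p = 0.00559 by limma). Usp54, a ubiquitin peptidase family member, rose from 0.690 to 1.10 RPKM to 1.501 to 2.91 RPKM (log2 0.90, adjusted p = 0.0371). Syn3, a synapsin, rose from 11.8 to 17.4 RPKM to 22.6 to 32.1 RPKM (log2 0.90, adjusted p = 0.0309). Syn3 spans Timp3, a matrix metalloprotease inhibitor on the opposite strand that also rose and held (18.3 to 30.6 RPKM in control, 35.8 to 55.0 RPKM in hypoxia, log2 0.87, adjusted p = 0.0478), and reads of the pair cannot be told apart without strand. Usp54 likewise overlaps annotated genes on the other strand.

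The locus of Mir29c, the precursor of a microRNA that targets collagen messages, was among the leading rises. Its RefSeq hairpin (GRCm38.p6, chr1:195037547-195037634, plus strand) is shown because the counted reads fall there, with the mature 3p arm in capitals, followed by that arm with its seed, bases 2 to 8, in capitals.
Mir29c hairpin: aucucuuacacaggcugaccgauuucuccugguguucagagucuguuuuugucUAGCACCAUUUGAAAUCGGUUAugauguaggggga
mmu-miR-29c-3p: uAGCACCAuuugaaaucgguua
The locus stood at 2.13, 1.37 and 1.47 RPKM in control and at 2.97 to 4.46, median 3.82 RPKM in hypoxia (log2 0.99, adjusted p = 0.0308 by limma), and the groups did not overlap. At most 44 reads fell on it in any library. Libraries of this kind hold fragments far longer than a mature microRNA, so the mature microRNA was not measured. A330023F24Rik overlaps the locus on the same strand and may share its reads.

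RNA-processing genes supplied another pair of held rises. Of 25 SR splicing factors and Clk kinases 2 rose and 0 fell, with a list median of 0.07. Clk1, a kinase that phosphorylates SR proteins, stood at 3.92, 3.68 and 3.94 RPKM in control, 6.90, 8.89 and 8.21 RPKM at 2 h and 6.46, 5.65 and 6.25 RPKM at 6 h. Every hypoxia library was above every control, and every 2 h library above every 6 h library (log2 0.78 ± 0.09 SE, adjusted p = 0.0154 by limma). Clk1 is thus held by the limits although its 6 h minus 2 h interval, -0.60 to -0.11, excludes 0. Srrm1, a splicing coactivator, rose from 7.01 to 7.94 RPKM to 8.96 to 12.9 RPKM (log2 0.51, adjusted p = 0.0381).

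**Figure D3:**
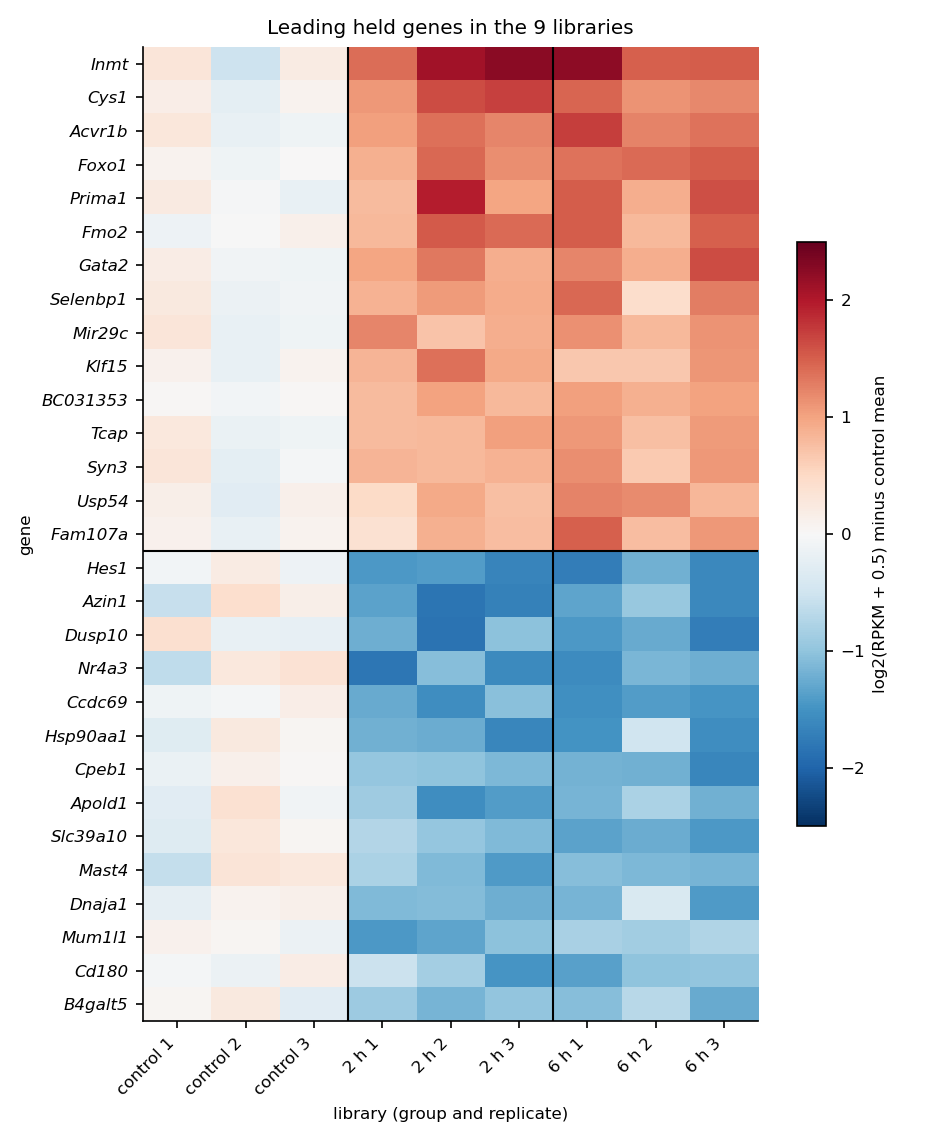
The 15 largest held rises and 14 of the 15 largest held falls (rows, from largest to smallest) in the 9 libraries (columns), coloured by log2(RPKM + 0.5) minus the mean of the 3 controls. Rises are red and falls blue in all 6 hypoxia libraries, and 6 h replicate 2 is paler than its group for Selenbp1, Hsp90aa1 and Dnaja1.

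The largest held fall was that of Hes1, a repressor that Notch switches on and that keeps precursor cells from differentiating. Hes1 (chromosome 16, 30064470 to 30067882 in mm9, plus strand) stood at 17.2, 20.9 and 16.4 RPKM in control, at 6.37, 6.59 and 5.44 RPKM at 2 h and at 5.06, 7.57 and 5.61 RPKM at 6 h. The hypoxia libraries were all far below the lowest control, and those of 2 h and 6 h overlapped. The change was log2 -1.501 ± 0.13 SE (adjusted p = 0.00559 by limma), and the 6 h minus 2 h difference was -0.03 with an interval of -0.38 to 0.33. Heyl, another Notch target, fell less and held as well, from 1.96, 1.89 and 2.20 RPKM in control to 1.11 to 1.38, median 1.30 RPKM in hypoxia (log2 -0.51, adjusted p = 0.0432). The other 23 of 25 Notch pathway genes were not called, and of all 25 the mean was higher in hypoxia in 13 and lower in 12.

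Dusp10, a phosphatase that switches off p38 and JNK, stood at 15.9, 10.5 and 10.3 RPKM in control, at 4.89, 2.99 and 5.65 RPKM at 2 h and at 4.09, 4.69 and 3.28 RPKM at 6 h. No hypoxia library reached the lowest control (log2 -1.42 ± 0.21 SE, adjusted p = 0.0296 by limma). It was the 1 gene called of 24 MAPK phosphatases and Sprouty genes, with 11 at an unadjusted p under 0.05. Of 28 immediate early genes 3 fell and 0 rose, and Nr4a3 and Gadd45b held. The median log2 change of that list was -0.28 in the pooled comparison and 0.04 without the 3 libraries of high matrix genes, with 16 of 28 then above control. Nr4a3, an orphan nuclear receptor that adrenergic signals and exercise induce, fell from 2.52, 5.14 and 5.55 RPKM to 0.835 to 1.74, median 1.29 RPKM (log2 -1.40, adjusted p = 0.0375). Gadd45b, a stress sensor that activates MAP kinases, fell from 30.9, 25.5 and 18.0 RPKM to 10.2 to 13.7, median 11.9 RPKM (log2 -1.01, adjusted p = 0.0308). For both genes all hypoxia libraries were below all controls.

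Genes around cyclic AMP fell in 3 of 36 and rose in 0, where 0.729% of all genes tested fell and 1.19% rose. The list median was -0.06, beside 0.02 for all, and 15 of the 36 had a higher mean in hypoxia. Akap1, which anchors protein kinase A at mitochondria, stood at 24.6, 25.97 and 24.3 RPKM in control and at 12.3 to 15.7, median 14.3 RPKM in hypoxia. The controls agreed closely and the hypoxia libraries lay far below them (log2 -0.81 ± 0.10 SE, adjusted p = 0.0155 by limma, 6 h minus 2 h 0.03, interval -0.22 to 0.29). Crem, a cyclic AMP response modulator, fell from 4.41, 5.67 and 6.48 RPKM to 2.27 to 3.56, median 3.10 RPKM (log2 -0.75, adjusted p = 0.0457). The other fall was Pde4b, which was lower at 6 h than at 2 h.

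Of 33 heat shock and chaperone genes 4 fell, of which Hsp90aa1 and Dnaja1 held their level. Hsp90aa1, the inducible HSP90, stood at 37.3, 55.0 and 48.1 RPKM in control, at 19.9, 19.3 and 14.5 RPKM at 2 h and at 16.1, 32.8 and 15.3 RPKM at 6 h. Dnaja1, an HSP40 partner of HSP70, stood at 17.2, 21.7 and 22.2 RPKM in control, at 9.23, 9.28 and 8.39 RPKM at 2 h and at 8.83, 15.4 and 7.28 RPKM at 6 h. In both, the highest hypoxia library was 6 h replicate 2, which carries high matrix genes, and it was still under the lowest control. The log2 changes were -1.27 and -1.06 (adjusted p = 0.0432 for each by limma).

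Hspa1b and Hspa1a, the inducible HSP70 genes, had the largest pooled falls of the list. Hspa1b stood at 4.20, 15.8 and 9.41 RPKM in control and at 1.10 to 3.12, median 1.63 RPKM in hypoxia (log2 -2.06 ± 0.40 SE, adjusted p = 0.0442 by limma). All hypoxia libraries were below all controls, but the controls themselves spread widely, and the 6 h minus 2 h interval, -1.17 to 0.92, was too wide to place it. Of the 33 heat shock and chaperone genes 0 rose, 29 had a lower mean in hypoxia, and the median log2 change was -0.33. Of the 33, 14 were higher in each of the 3 libraries of high matrix genes than in each of the others, and in a fit that models those libraries separately the median was -0.12. The part of those libraries in the fall was not tested. Hspa1a and Hspa1b are near-identical copies and share reads.

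**Figure D4:**
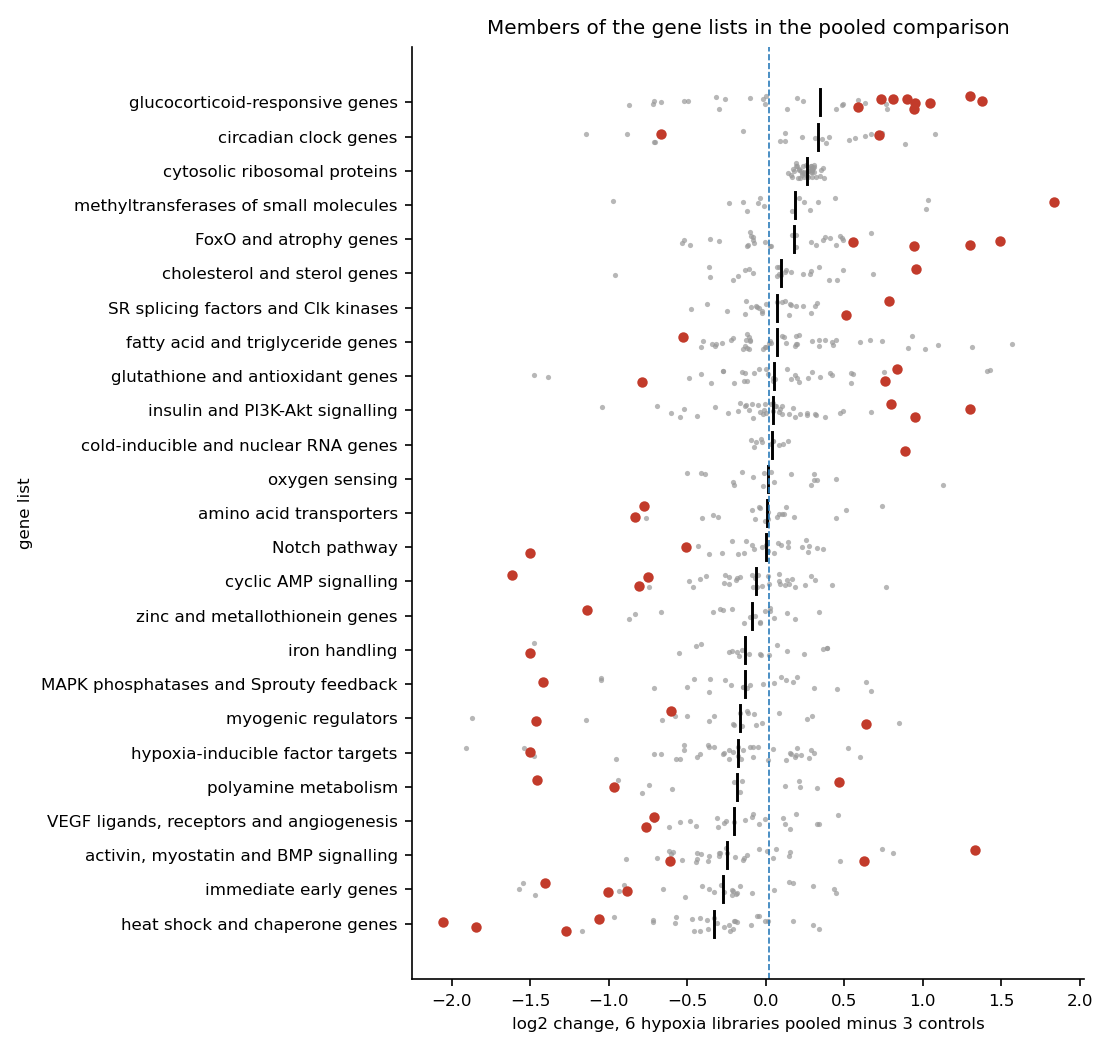
Pooled log2 change (horizontal axis, 6 hypoxia libraries minus 3 controls) of each tested member of 25 gene lists. Large red points are called genes, small grey points are not, black bars are list medians and the dashed line is the median of all genes tested (0.02). Glucocorticoid-responsive genes hold 9 red points to the right and heat shock genes 4 to the left. The lists were chosen with earlier results of these data known.

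Among growth and transport genes, Azin1, an antizyme inhibitor that keeps ornithine decarboxylase active, fell from 11.6, 23.6 and 19.2 RPKM in control to 6.63, 4.54 and 5.07 RPKM at 2 h and 6.68, 8.74 and 5.34 RPKM at 6 h. All hypoxia libraries lay below all controls, which spread from 11.6 to 23.6 RPKM (log2 -1.46 ± 0.23 SE, adjusted p = 0.0309 by limma). Azin1 overlaps Gm49077 on the opposite strand. Paox, polyamine oxidase, rose and held (2.16, 2.17 and 1.97 RPKM in control, 2.72 to 3.23, median 3.16 RPKM in hypoxia, log2 0.46, adjusted p = 0.0371). Slc22a3, a carrier of organic cations, fell without holding (0.787 to 1.29 RPKM in control, 0.0727 to 0.246 RPKM at 2 h, 0.371 to 0.560 RPKM at 6 h), at levels near the pseudocount. These 3 are the called members of 14 polyamine genes.

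Slc38a4, an amino acid transporter, fell and held (34.5, 38.8 and 46.1 RPKM in control, 18.3 to 32.0, median 20.5 RPKM in hypoxia, log2 -0.83, adjusted p = 0.0474 by limma). Slc6a8, the creatine transporter, fell and went on falling, and these were the 2 called of 22 amino acid transporters. Slc39a10, a zinc importer, fell from 1.63, 2.76 and 2.26 RPKM to 0.487 to 1.10, median 0.692 RPKM (log2 -1.14, adjusted p = 0.0272), the 1 called of 20 zinc and metallothionein genes. All 3 carriers had hypoxia libraries wholly below control.

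Of 25 VEGF and angiogenesis genes 2 fell, 0 rose, and 18 had a lower mean in hypoxia (median log2 -0.20). Nrp1, neuropilin, a co-receptor of VEGF, fell from 6.83, 5.83 and 6.68 RPKM in control to 3.02 to 4.73, median 3.71 RPKM in hypoxia and held (log2 -0.71, adjusted p = 0.0395 by limma). Pdgfa, a platelet-derived growth factor, fell from 10.3, 15.4 and 12.2 RPKM to 5.79 to 8.09, median 7.38 RPKM and held (log2 -0.76, adjusted p = 0.035). Vegfa, the ligand itself, stood at 37.2, 30.4 and 31.4 RPKM in control and at 18.4 to 27.0, median 22.3 RPKM in hypoxia. All its hypoxia libraries lay below all controls, but it missed the threshold (log2 -0.55 ± 0.14 SE, adjusted p = 0.0784). It passed when the libraries of high matrix genes were modelled separately (log2 -0.73, adjusted p = 0.0439 by limma) and in DESeq2 (adjusted p = 0.011), and not in edgeR (0.0735).

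None of the classical targets of the hypoxia-inducible factors passed the test as a rise. Of 43 tested targets 0 rose and 1 fell, Tfrc, which is also an iron gene, and the median log2 change was -0.18. By limma 15 of the 43 were at an unadjusted p under 0.05, and edgeR called 3 and DESeq2 9. When the fit modelled the 3 libraries of high matrix genes separately, the median was -0.03, and without those libraries it was 0.03. Slc2a1, the glucose transporter GLUT1, ranged from 2.93 to 10.0 RPKM in control and 3.37 to 5.34 RPKM in hypoxia (log2 -0.37, adjusted p = 0.522). Ldha, lactate dehydrogenase, ranged from 1890.0 to 2275 RPKM and 1560.0 to 2102 RPKM (log2 -0.23, adjusted p = 0.247). Pdk1, a pyruvate dehydrogenase kinase, ranged from 9.12 to 12.2 RPKM and 8.31 to 12.8 RPKM (log2 0.05, adjusted p = 0.874). In these 3 genes control and hypoxia libraries overlapped.

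Ddit4, REDD1, which restrains mTORC1, had all hypoxia libraries below control (117, 109 and 123 RPKM in control, 55.8 to 101, median 83.8 RPKM in hypoxia) and missed the threshold (log2 -0.52, adjusted p = 0.0682 by limma). It passed after upper-quartile scaling (adjusted p = 0.0482) and median centring (0.0491) in limma, and in edgeR (0.0373) and DESeq2 (0.000563). Of 18 oxygen-sensing genes 0 were called, 6 at an unadjusted p under 0.05, and edgeR called 0 and DESeq2 4. Hif1a, the alpha subunit regulated mainly at the protein level, ranged from 4.44 to 7.97 RPKM in control and 3.68 to 7.05 RPKM in hypoxia (log2 -0.41, adjusted p = 0.293). Epas1, its sister HIF-2 alpha, ranged from 18.9 to 30.5 RPKM and 25.8 to 39.3 RPKM (log2 0.33, adjusted p = 0.304). Both overlapped between groups, and transcript levels say nothing of the proteins.

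Other leading falls belonged to several roles. Ccdc69, a coiled-coil protein, fell from 2.44, 2.57 and 3.04 RPKM to 0.587 to 1.04, median 0.669 RPKM (log2 -1.38, adjusted p = 0.00795 by limma). Cpeb1, which controls the poly(A) tails of stored messages, fell from 7.80, 9.64 and 8.98 RPKM to 2.48 to 4.27, median 3.67 RPKM (log2 -1.19, adjusted p = 0.00795). Both had tight controls and no overlap. Apold1, an early gene of endothelium, fell from 1.37 to 2.47 RPKM to 0.281 to 0.818 RPKM (log2 -1.16, adjusted p = 0.0409). B4galt5, a galactosyltransferase of lactosylceramide, fell from 2.49 to 3.79 RPKM to 1.03 to 1.73 RPKM (log2 -1.01, adjusted p = 0.0308). Eya1, a transcriptional cofactor in muscle, fell from 5.92 to 6.19 RPKM to 2.80 to 4.47 RPKM (log2 -0.60, adjusted p = 0.0432) and was the held member of 3 called among 23 myogenic regulators.

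Cd180, a Toll-like receptor relative of immune cells, fell from 1.79 to 2.36 RPKM to 0.410 to 1.25 RPKM (log2 -1.03, adjusted p = 0.0473 by limma) with at most 93 reads in a library. Beside it, 19 of 19 macrophage markers had a lower mean log2 level in hypoxia (median log2 -0.53, and 0.39 without the 3 libraries of high matrix genes). They summed to 62.2 to 298 RPKM in control and 75.2 to 446 RPKM in hypoxia, with 0 called by limma, edgeR or DESeq2 and 0 at an unadjusted p under 0.05. The log2 change of Cd180 was -1.02 without those libraries. Cd180 lies opposite Mast4, a microtubule-associated kinase that fell too (3.20 to 6.43 RPKM in control, 1.59 to 2.73 RPKM in hypoxia, log2 -1.11, adjusted p = 0.0432), so the pair may share reads. The log2 change of Mast4 was -0.52 when the 3 libraries of high matrix genes were left out (unadjusted p = 0.07 by limma, with 1 control). Mum1l1 fell from 1.79 to 2.21 RPKM to 0.437 to 0.997 RPKM (log2 -1.04, adjusted p = 0.0172), also on few reads, at most 37.

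Of the lists not yet described, 1 of 48 fatty acid genes fell (Acsl1), 1 of 20 iron genes fell (Tfrc), 1 of 25 sterol genes rose (Abca1) and 1 of 12 cold-inducible genes rose (Cirbp), none of them at a held level. Of 7 erythroid and 7 adipocyte genes limma, edgeR and DESeq2 called 0, with 0 at an unadjusted p under 0.05. Of 8 satellite cell and pericyte genes limma and edgeR called 0 and DESeq2 1, with 3 at an unadjusted p under 0.05.

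Cytosolic ribosomal protein genes all had higher means without a call. This held for 42 of 42 tested, also after upper-quartile scaling, median centring and in edgeR, and the median log2 change was 0.26. By limma 0 of 42 were called and 24 were at an unadjusted p under 0.05, edgeR called 0 and DESeq2 4. Their summed level was 11072 to 12969 RPKM in control and 13251 to 17448 RPKM in hypoxia, so the groups did not overlap.

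Held genes were set beside all tested genes for short motifs in their promoters, from RefSeq (GRCm38.p6), each 250 bases before to 50 after a gene's start, the first listed where a gene has several. A promoter was matched for 10085 of 13309 tested genes, 105 of 129 held rises and 46 of 71 held falls. The FoxO element GTAAACA, on either strand, stood in 7 of 105 held rises (6.67%) and 0 of 46 held falls, and in 2.47% of all. The inverted heat shock unit GAANNTTC stood in 8 of 46 held falls (17.4%) and 7 of 105 held rises (6.67%), and in 5.64% of all. The hypoxia response core ACGTG stood in 29.5% of held rises and 30.4% of held falls, and in 25.8% of all. The E-box CACGTG, which contains that core, stood in 11.4%, 10.9% and 10.3%, and the glucocorticoid receptor half-site AGAACA in 8.57%, 8.70% and 12.2%. The AP-1 element TGACTCA stood in 2.86%, 2.17% and 3.47% and the cyclic AMP element TGACGTCA in 0 of 105, 1 of 46 and 3.18%.

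The median GC content was 61.3% in held rises, 64.2% in held falls and 60.7% in all. These counts are small and are given with no test, and a match of letters is no evidence of binding. Upstream stretches of some of the 7 held rises with the FoxO element are shown, since Foxo1 itself was among the held rises. Each stretch is written on the gene's strand and lies before its start, with the element, in either orientation, in capitals.
Cdc45, chr16:18812164-18812220 (-): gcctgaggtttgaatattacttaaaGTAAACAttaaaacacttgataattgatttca
Hsd11b1, chr1:193242467-193242523 (-): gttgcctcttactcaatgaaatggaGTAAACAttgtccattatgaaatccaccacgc
Mtmr14, chr6:113237797-113237842 (+): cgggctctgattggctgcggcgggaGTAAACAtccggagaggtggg
Ccni, chr5:93206496-93206547 (-): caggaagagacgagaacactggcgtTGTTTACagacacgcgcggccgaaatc
Cdc45, a replication factor, rose from 1.03 to 1.30 RPKM to 1.80 to 2.23 RPKM (log2 0.61), Mtmr14, a phosphoinositide phosphatase of muscle, from 8.12 to 9.91 RPKM to 10.7 to 14.3 RPKM (log2 0.57), and Ccni, an atypical cyclin, from 16.3 to 19.6 RPKM to 20.5 to 30.5 RPKM (log2 0.53). Hypoxia libraries of these 3 genes lay above all controls, as did those of Hsd11b1, given above. The element begins at -223 in Cdc45, at -138 in Hsd11b1, at -21 in Mtmr14 and at -27 in Ccni, counted in bases from the gene's start.

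Stretches of some of the 8 held falls with the heat shock unit are shown next, since Dnaja1, a held fall among the chaperones, carries it. Slc38a4, Nt5c3 and Lace1 carry it too and are not shown. RefSeq lists 3 starts for Dnaja1 and 2 for Pdgfa, of which the first was taken.
Dnaja1, chr4:40722319-40722376 (+): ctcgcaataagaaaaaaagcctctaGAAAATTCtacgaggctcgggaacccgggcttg
Pdgfa, chr5:138994437-138994494 (-): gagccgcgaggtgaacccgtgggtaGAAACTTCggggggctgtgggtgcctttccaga
Grk5, chr19:60889522-60889579 (+): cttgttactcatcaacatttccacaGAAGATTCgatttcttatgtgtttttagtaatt
Gimap4, chr6:48684442-48684499 (+): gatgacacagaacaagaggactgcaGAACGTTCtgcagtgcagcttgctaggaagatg
Clic5, chr17:44188383-44188440 (+): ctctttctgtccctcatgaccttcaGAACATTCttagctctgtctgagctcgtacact
Of these only Dnaja1 is a chaperone gene. Grk5, a kinase of G protein-coupled receptors, fell from 2.02 to 2.61 RPKM to 1.11 to 1.61 RPKM (log2 -0.70), Gimap4, a GTPase of lymphocytes, from 2.47 to 2.95 RPKM to 1.26 to 2.19 RPKM (log2 -0.66), and Clic5, a chloride channel protein of the cytoskeleton, from 36.5 to 43.0 RPKM to 25.2 to 31.9 RPKM (log2 -0.46). The promoter genes Cdc45, Mtmr14, Ccni, Grk5, Gimap4 and Clic5 were picked for their motif after their values were seen.

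The genes that were called yet changed between the times mark the edge of the held class. Of 29 such rises 21 stood farther from control at 6 h and 8 nearer, and of 19 such falls 12 stood farther and 7 nearer. Fkbp5, a co-chaperone of the glucocorticoid receptor, stood at 23.1, 23.9 and 25.5 RPKM in control, 32.0, 67.7 and 62.1 RPKM at 2 h and 77.7, 88.1 and 70.0 RPKM at 6 h (log2 1.37, adjusted p = 0.0308 by limma). Amotl2, an angiomotin of the Hippo pathway, stood at 3.71, 3.62 and 3.63 RPKM, 4.78, 6.15 and 5.30 RPKM and 11.8, 9.71 and 14.98 RPKM in the same order (6 h minus 2 h 1.09, interval 0.74 to 1.43). Pik3r1 and Abca1, the sterol exporter, also rose mainly by 6 h, with 6 h minus 2 h differences of 0.95 and 0.98, and so did Tmem229b (0.87), a membrane protein.

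Asb15, a substrate adaptor of ubiquitin ligases in muscle, peaked at 2 h, at 24.95, 59.9 and 35.8 RPKM, and stood at 10.8, 6.76 and 8.00 RPKM in control and 20.2, 10.5 and 18.5 RPKM at 6 h, where it overlapped control (6 h minus 2 h -1.23). Pik3ip1 likewise stood highest at 2 h (9.78 to 11.4 RPKM in control, 20.6 to 24.5 RPKM at 2 h, 14.1 to 16.02 RPKM at 6 h), as did Arrdc2, an arrestin-domain protein (6 h minus 2 h -0.52). Cirbp, the cold-inducible RNA-binding protein, stood at 19.5, 19.98 and 19.3 RPKM in control, 44.8, 22.7 and 25.7 RPKM at 2 h and 48.5, 44.2 and 43.2 RPKM at 6 h, and 1 of its 2 h libraries was already at the 6 h level (log2 0.89, adjusted p = 0.05 by limma). Fbxo21, a ubiquitin ligase subunit, and Pitx3, a homeobox factor of muscle, rose mainly by 6 h (0.63 and 0.77).

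Among falls, Tfrc, the receptor for iron-loaded transferrin, stood at 77.2, 43.5 and 41.4 RPKM in control, at 13.6, 9.25 and 13.0 RPKM at 2 h and at 23.6, 29.5 and 29.6 RPKM at 6 h. All hypoxia libraries were below control, and the 6 h libraries were back part of the way (6 h minus 2 h 1.18, interval 0.64 to 1.73, pooled log2 -1.499, adjusted p = 0.0254 by limma). Tm6sf1 and Acsl1, an acyl-CoA synthetase, were also nearer to control at 6 h (0.82 and 0.69). Pde4b, a cyclic AMP phosphodiesterase, stood at 17.7, 28.3 and 14.0 RPKM in control, at 10.4, 15.6 and 8.25 RPKM at 2 h and at 3.17, 3.70 and 2.48 RPKM at 6 h (6 h minus 2 h -1.68). Its 2 h libraries overlapped the controls and its 6 h libraries lay below both. Myod1, the myogenic master regulator, fell from 5.88, 17.8 and 7.17 RPKM to 3.18, 5.03 and 4.50 RPKM and 2.11, 2.44 and 1.86 RPKM (-0.83). Acvr1 (-0.86), Slc6a8 (-0.73) and Zfp36, which destabilises messages with AU-rich elements (-0.65), stood farther below control at 6 h.

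**Figure D5:**
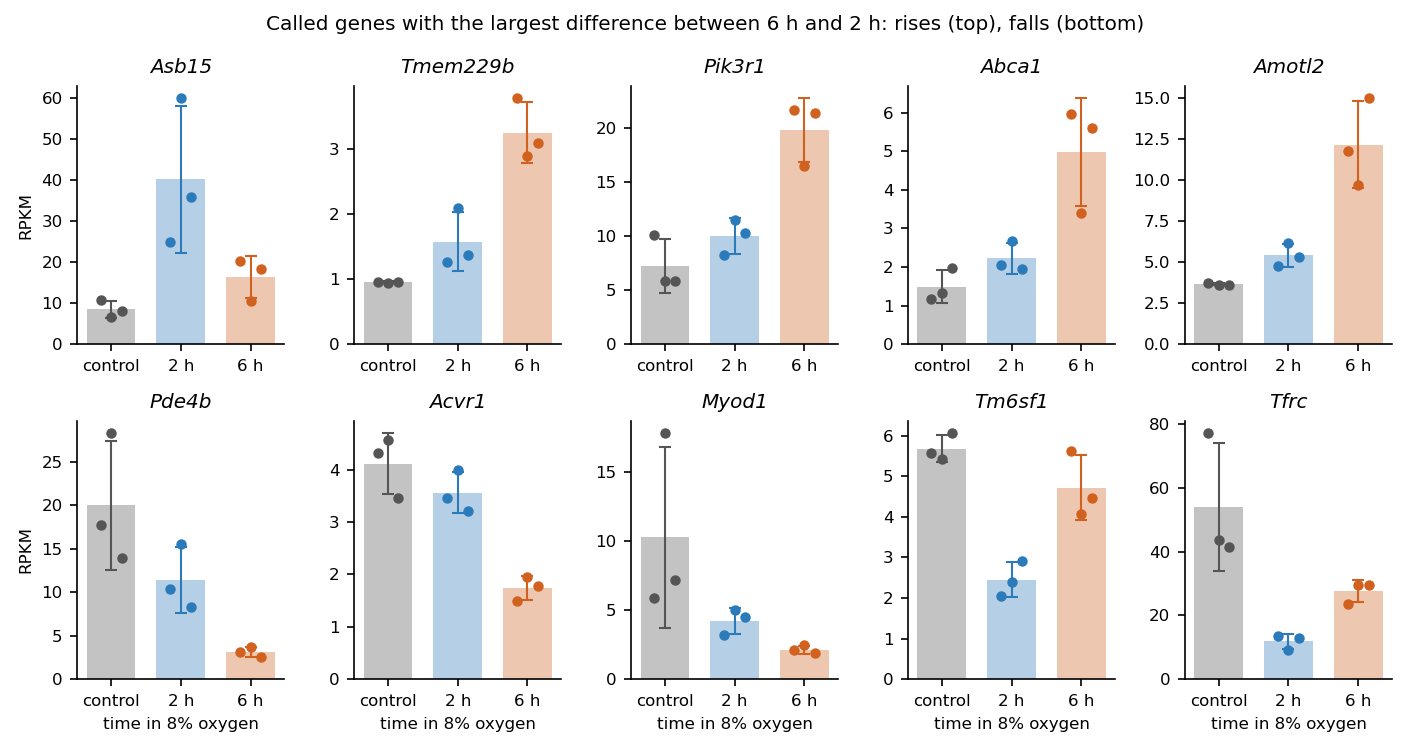
Level in RPKM (vertical axes, from 0) of the 5 rises and 5 falls with the largest difference between 6 h and 2 h, by group. Points are libraries, bars group means and whiskers 1 SD over 3 libraries, and Asb15 and Tm6sf1 stand out at 2 h, whereas Amotl2, Abca1 and Acvr1 move mainly at 6 h.

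The limits of the held class cut through a continuum. Just inside the limit of 0.5 on the 6 h minus 2 h difference were Trmt1 (0.49 in size), Tenc1 (0.49) and Nctc1 (0.48), and just outside Exd2 (0.51), Arrdc2 (0.52) and Cept1 (0.52). By the far end of the interval, with a limit of 1, Nme3 (0.98), Slc6a8 (0.97) and Pitx3 (0.97) were just inside, though their difference itself was over 0.5, and Amy1 (1.03), Cdhr3 (1.03) and Fam70b (1.05) just outside. The 8 genes that were in neither class had wide intervals. They were Tcfcp2l1, a rise, and the falls Hspa1b, Hspa1a, Gm20481, which overlaps Hspa1a, Dysfip1, Spon2, Tnfaip2 and Relt. Among genes named above, Dnaja1, Slc22a3, Zfp36, Crem, Pdgfa, Paox, Bmp4, Pitx3, Pik3ip1, Sult1a1, Nrp1, Acsl1, Nme3 and Amy1 overlap another annotated gene as well. So do Tm6sf1, Hif1a, Cept1, Fam70b, Fbxo32 and Slc2a1. The values of all these genes may include reads of the gene they overlap.

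The number of genes called rested on single libraries. Without control replicate 3 limma called 0 genes (1760 at an unadjusted p under 0.05), without control replicate 2 it called 5 and without 6 h replicate 2 it called 713. Without the 3 libraries of high matrix genes, which leaves 1 control and takes the spread from the hypoxia libraries alone, it also called 0 (1556 at an unadjusted p under 0.05).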

How the data were processed

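RNA from plantaris muscle (RNA integrity number 9.5 to 10.0) was sequenced as TruSeq libraries with paired reads of 100 bases, per the labels. The authors deposited RPKM per gene and library, with fold changes and adjusted p-values of their own. Coordinates are mm9, and the submitters' processing notes name FastQC, SAMtools, TopHat2, Bowtie2 and bedtools. For the counting tool, strand use and the authors' test, no source used here gives an answer. Read counts were recovered from the steps of the deposited RPKM values, and 100% of 40140 values under 500 reads came out whole within 0.1 read.

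Genes with a mean of at least 0.5 RPKM were tested on log2(RPKM + 0.5), which understates the change of low genes, with limma 3.58.1 in R 4.3.3 (3 group means, mean-variance trend, mean of 2 h and 6 h against control, Benjamini-Hochberg adjustment over 13309 genes, two-sided). The fit was tested on simulated data. edgeR 4.0.16 and DESeq2 1.42.0 were run on the recovered reads as alternatives chosen after seeing the data, as were modelling separately, or removing, the libraries of high matrix genes. Other alternatives changed the pseudocount, filter, scaling, model, limits of a held level and libraries.

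The genes and lists were chosen with earlier results of these data known. Named were the 15 largest held rises and falls with groups apart, the called members of each list, the 5 rises and 5 falls with the largest 6 h minus 2 h difference, 20 genes of known interest, and the genes next to each limit. Of these, 1 held fall is not reported here. No 2 libraries matched within sampling noise (chi-square per gene of 66.6 to 470.6 over 36 pairs). Overlapping genes are those of GENCODE M21, and without strand their reads cannot be told apart.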

Additional observations from a re-analysis of the deposited data

Results flagged for a closer look

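In 7 of the 92 named genes 1 library stood apart from the other 5 in the pooled hypoxia group by Dixon's criterion, where chance alone gives about 1 in 20 groups. The library was the lowest for Cpeb1 (6 h replicate 3, 2.476 RPKM), Paox (2 h replicate 2, 2.72 RPKM), Fkbp5 (2 h replicate 1, 31.99 RPKM) and Clock (2 h replicate 3, 1.357 RPKM). It was the highest for Hif1a (6 h replicate 2, 7.052 RPKM), Dnaja1 (6 h replicate 2, 15.43 RPKM) and Gpx3 (2 h replicate 1, 276.1 RPKM). 6 h replicate 2 is 1 of the 3 libraries of high matrix genes, and its part in the Hif1a and Dnaja1 values was not tested.

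In 3 named genes the change from control differed between 6 h and 2 h past an adjusted p of 0.05 in limma, as it did in 19 of all 13309 genes (2180 at an unadjusted p under 0.05). On the log2 scale 6 h exceeded 2 h by 0.6863 for Acsl1 (adjusted p = 0.0499), by 0.7723 for Pitx3 (adjusted p = 0.0336) and by 1.085 for Amotl2 (adjusted p = 0.0499).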

How the results depend on the processing

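Of 256 called and 200 held genes in limma, a pseudocount of 0.1 or 1, no filter, a filter at 1 RPKM and both rescalings left between 227 and 292 called and between 179 and 234 held. Fewer passed with the hypoxia libraries as 1 group (85 and 81), without a mean-variance trend (124 and 97), with a 1.5-fold minimum (165 and 112), with a call required at both times (30 and 29), and when the fit modelled the 3 libraries of high matrix genes separately (43 and 30). With those 3 libraries modelled separately, 32 of the 43 were among the 256, and 22 of the 200 held genes were still called. Without those libraries 0 and 0 passed (1556 genes at an unadjusted p under 0.05). Library weights called 5082 and 4217 genes. edgeR called 352 genes (120 rises and 232 falls), and DESeq2 1316 (629 and 687), including 154 and 199 of the 200 held. A difference of at most 0.25 left 150 held, and an interval within 1.5-fold 149.

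With the replicate number as a block 43 genes were called and 31 held. The labels do not pair the libraries, same-numbered libraries correlated at -0.331 to 0.493 over 9 pairs, and 0 libraries correlated best with their own number in both other groups.

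Leaving out 1 library gave 0 to 713 called and 0 to 558 held. Called genes numbered 160 without control replicate 1, 5 without control replicate 2, 0 without control replicate 3, 25 and 31 without 2 h replicates 2 and 3, 8 and 11 without 6 h replicates 1 and 3, and 713 without 6 h replicate 2. The cause was not tested.

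No called gene that was named changed direction under an alternative. Where every hypoxia library lay on 1 side of every control, leaving out libraries could not have changed it. For those genes a kept direction lends no further weight. Of the named genes not called, Trim63 was at -0.12 with library weights, and -0.22 to 0.44 when 1 library was left out. Slc2a1 was at 0.45 without the 3 libraries and -0.79 to 0.024 when 1 was left out. Pdk1 was at -0.13 with those libraries modelled separately, -0.16 without the 3 libraries and -0.024 to 0.18 when 1 was left out.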

Other observations

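Further held genes, picked after their values were seen, belong to roles not described above. Lmod2, leiomodin, which lengthens thin filaments, rose from 87.5 to 106 RPKM in control to 139.7 to 213 RPKM in hypoxia (log2 0.79, adjusted p = 0.035 by limma). Gpt2, the mitochondrial alanine transaminase, rose from 61.9 to 82.1 RPKM to 93.6 to 121 RPKM (log2 0.60, adjusted p = 0.0423). Aldh2, the mitochondrial aldehyde dehydrogenase, rose from 25.7 to 29.3 RPKM to 33.5 to 53.8 RPKM (log2 0.67, adjusted p = 0.0448). In each of these the hypoxia libraries lay above all controls.

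Of the Hippo pathway's nuclear end, Yap1, a coactivator, fell from 13.3 to 17.2 RPKM to 7.66 to 11.5 RPKM (log2 -0.62, adjusted p = 0.0459 by limma). Its DNA-binding partner Tead4 fell from 4.03 to 4.44 RPKM to 1.49 to 3.37 RPKM (log2 -0.89, adjusted p = 0.0448). Both held their level with no overlap of the groups. Yap1 and Tead4 were picked after their values were seen, and the members of the pathway were not counted as a list. Amotl2, of the same pathway, rose (log2 1.05), and the output of the pathway was not tested. Ppargc1b, a coactivator of mitochondrial genes, fell from 1.48 to 1.76 RPKM to 0.658 to 0.985 RPKM and held (log2 -0.62, adjusted p = 0.0494).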
